A study of Homo sapiens with 8 samples.

Results

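A CTCF site was counted as lying in a gene desert where the centre of its peak in control HT1080 cells fell outside every protein-coding gene and more than 500 kb from the nearest protein-coding transcription start. On chromosomes 1 to 22, 1510 of the 46054 peaks of control cells met this rule, which is 3.28% of them (95% Wilson interval 3.12 to 3.45). The rule used positions only, and neither the strength nor the fate of a peak entered it. HT1080 is a human fibrosarcoma line of connective tissue origin with an active ras oncogene. The study compared control HT1080 cells with HT1080 cells exposed to 3 µM CBL0137 for 6 h, and asked whether the drug displaces CTCF from its sites. CTCF chromatin immunoprecipitation was sequenced from 2 biological replicates per condition, each with an input library, giving 8 libraries of a single cell line at a single dose and time.

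CTCF is a zinc finger protein that binds a long DNA motif, stops the cohesin ring as it extrudes chromatin loops and so marks loop anchors and the borders of contact domains. Gene deserts are long stretches without protein-coding genes. They tend to be poor in G and C, some of them hold remote enhancers of a developmental regulator at their edge, and in these CTCF sites are known to help set which promoter an enhancer reaches. CBL0137 belongs to the curaxins, small molecules that bind DNA and disturb nucleosomes without breaking the DNA strands.

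The authors pooled the replicates of a condition when calling peaks, so that each condition has 1 list, which gives every peak its fold enrichment, the ratio of ChIP to input. No value per replicate can be taken from these lists and no read count is in them. The shares given here therefore carry Wilson 95% intervals, which cover counting error alone and not the difference between replicate cultures, and no test between conditions was made from them. A control peak was called kept if a peak of CBL0137-treated cells overlapped it by any length, and lost if none did. A treated peak without an overlapping control peak was called arisen. Over all control peaks of these chromosomes, 42.7% were lost, and 8.08% of the 28796 treated peaks were arisen.

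The sequences of a few peaks are shown because the fates described here attach to them. The first pair are among the strongest desert peaks that were kept, the next pair are a strong lost peak and the lost peak farthest of all from a protein-coding start, and the last one arose in treated cells. Each line gives the desert by its border genes, the position in GRCh37 (hg19), and the plus strand from 5′ to 3′, with the best match to the CTCF core consensus in capitals. For the first pair, which are wider than 300 bp, the central 300 bp are given.
LSAMP–IGSF11, chr3:117716351-117716650, kept: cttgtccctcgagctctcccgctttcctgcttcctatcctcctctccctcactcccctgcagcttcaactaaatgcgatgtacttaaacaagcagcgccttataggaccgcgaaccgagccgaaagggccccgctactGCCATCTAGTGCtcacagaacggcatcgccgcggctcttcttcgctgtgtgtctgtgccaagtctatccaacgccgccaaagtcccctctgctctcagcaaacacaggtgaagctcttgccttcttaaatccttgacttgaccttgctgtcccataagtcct
GALR1–SALL3, chr18:75612076-75612375, kept: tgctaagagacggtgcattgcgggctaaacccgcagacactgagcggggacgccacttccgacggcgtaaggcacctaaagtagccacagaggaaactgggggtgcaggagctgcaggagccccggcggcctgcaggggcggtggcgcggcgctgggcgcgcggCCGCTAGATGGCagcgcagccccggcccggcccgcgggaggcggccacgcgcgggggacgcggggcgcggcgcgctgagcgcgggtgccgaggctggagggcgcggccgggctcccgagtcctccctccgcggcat
TLL1–SPOCK3, chr4:167515551-167515800, lost: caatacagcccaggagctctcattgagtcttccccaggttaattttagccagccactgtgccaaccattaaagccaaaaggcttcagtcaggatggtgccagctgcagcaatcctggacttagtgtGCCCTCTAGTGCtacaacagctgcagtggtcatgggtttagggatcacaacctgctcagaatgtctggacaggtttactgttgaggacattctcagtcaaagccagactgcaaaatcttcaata
PCDH7–ARAP2, chr4:33388451-33388750, lost: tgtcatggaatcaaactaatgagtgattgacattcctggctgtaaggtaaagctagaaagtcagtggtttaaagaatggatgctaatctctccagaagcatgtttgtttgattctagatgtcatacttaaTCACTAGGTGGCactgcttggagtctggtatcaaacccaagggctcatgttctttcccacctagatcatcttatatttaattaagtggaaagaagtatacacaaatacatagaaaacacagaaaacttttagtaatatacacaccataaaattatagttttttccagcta
CTNNA2–SUCLG1, chr2:83744951-83745150, arisen: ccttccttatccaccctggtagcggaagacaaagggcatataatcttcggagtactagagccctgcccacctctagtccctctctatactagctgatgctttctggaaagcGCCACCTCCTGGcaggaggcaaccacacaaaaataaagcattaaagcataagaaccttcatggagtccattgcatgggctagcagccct
All of these carry a match with 1 mismatch to the 12-base core. GC content over 500 bp was 56.0% at the kept peak of LSAMP–IGSF11 and 69.2% at that of GALR1–SALL3. It was 43.2% at the lost peak of TLL1–SPOCK3 and 34.4% at the farthest lost peak. Over all desert peaks the medians lay closer together, 42.4% for kept and 38.8% for lost ones.

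Deserts held few CTCF peaks for their length. They made up 264 Mb, 9.84% of the sequenced bases of chromosomes 1 to 22, and had 5.72 control peaks per Mb (5.43 to 6.01, exact Poisson 95% interval), against 18.4 per Mb in the rest, a ratio of 0.311. Treated cells had 625 desert peaks, 2.37 per Mb against 11.6 per Mb elsewhere, a ratio of 0.203. The number of desert peaks after treatment was thus 41.4% of the number in control cells, while outside deserts it was 63.2%. Desert sites stood far apart. The nearest control peak was at a median of 49.2 kb (quartiles 16.7 and 113.8 kb), against 13.5 kb for other control peaks.

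CTCF peaks in deserts were somewhat weaker, narrower and poorer in GC than other control peaks. Their median fold enrichment was 25.3 (quartiles 18.0 and 33.7), against 28.6 (19.7 and 38.5) elsewhere, and their median width 250 bp against 300 bp. Within 500 bp of sequence around the centre the median GC content was 40.2% in deserts and 45.8% elsewhere, and within the surrounding 100 kb it was 35.8% and 42.7%. The core consensus was nearly as common. This is the known 12-base core of the CTCF motif, searched on both strands within 400 bp around the centre with at most 1 mismatch. It was found at 710 desert peaks, 47.0% (44.5 to 49.5), and at 48.9% of other control peaks. In windows of equal length 10 kb to either side, 1.09% of those beside desert peaks and 2.87% of those beside other peaks held it. Matches were divided evenly between the strands, 355 on each.

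After CBL0137 treatment, desert sites were without a peak more often than other sites. Of the 1510 desert peaks, 928 were lost, 61.5% (59.0 to 63.9), against 18721 of 44544 other control peaks, 42.0% (41.6 to 42.5), and against the 42.7% lost over all control peaks. If desert peaks had been lost as often as other control peaks of the same fold enrichment, 47.9% would have been lost, so that a difference of 13.6 percentage points remained at equal strength. In each of the 10 strength classes the desert share was the higher one. It was 95% against 88.1% among the weakest peaks, 55.8% against 32.5% in the sixth class, and 22.1% against 7.10% among the strongest.

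**Figure D1:**
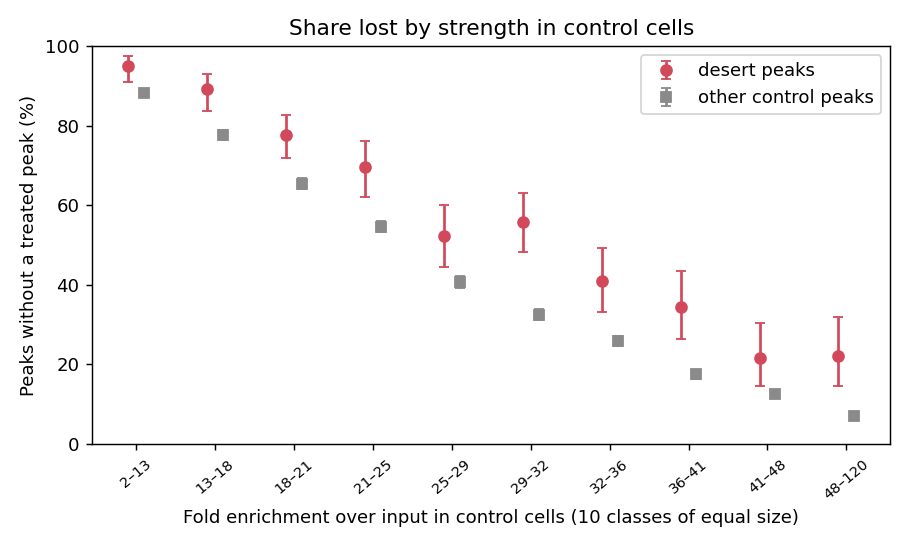
Share of CTCF peaks of control cells without a peak after CBL0137 (y axis, %) in 10 classes of fold enrichment over input (x axis), for desert peaks (circles) and other control peaks (squares), with Wilson 95% intervals of counting error. Both series fall from weak to strong peaks, and the desert share lies above the other in all 10 classes, by 6.94 to 23.3 percentage points.

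The GC content of the surrounding region moved with this difference. With peaks matched by classes of the GC content of the surrounding 100 kb in place of fold enrichment, the difference was 4.84 points. Matched by classes of both it was 4.83 points. These comparisons were added after the data were seen. Most desert peaks, 1235 of the 1510, lay in the lowest of 5 equal classes of regional GC content, and there 65.3% (62.6 to 67.9) were lost against 56.9% (55.8 to 58.0) of other peaks. In the next class the shares were 49.4% and 49.7%, and in the third, with 75 desert peaks, the desert share was lower, 32.0% against 44.2%. In the class after it, with 30 desert peaks, the shares were 36.7% and 35.9%, and the highest class held 8 desert peaks, 75% of them lost against 25.5% of others. By these classes, desert peaks were thus lost more often mainly in the class poorest in GC, which holds most of them. That class runs from 32.4% to 38.4%, and desert and other peaks were not matched further within it. The classes therefore do not compare peaks at equal regional GC content. The desert at the end of chromosome 14, which has 45.8% GC over its length, kept 33 of the 35 peaks that met the rule there. The shares by regional GC content include it and were not computed without it. Whether base composition has a part in the loss was not tested.

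**Figure D2:**
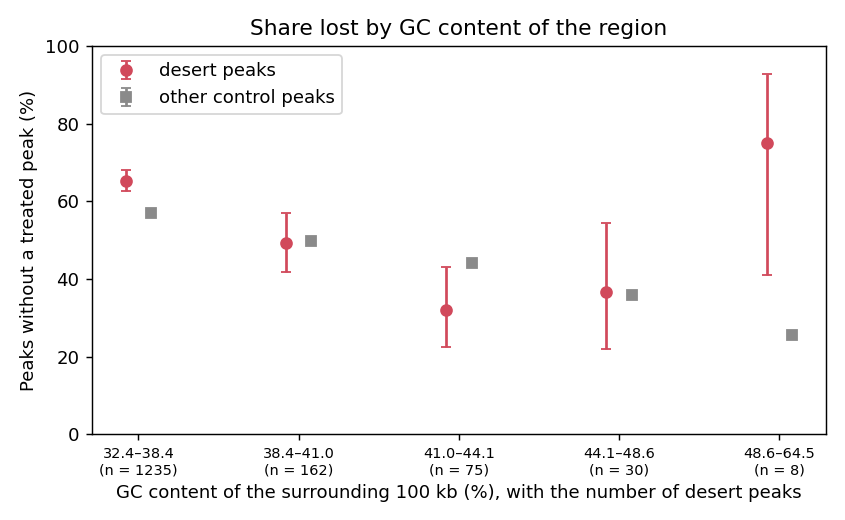
Share of control peaks lost after CBL0137 (y axis, %) in 5 classes of GC content of the surrounding 100 kb (x axis, %, with the number of desert peaks), for desert peaks (circles) and other control peaks (squares), with Wilson 95% intervals of counting error. The desert share is above the other in the class of lowest GC content, 65.3% against 56.9%, below it in the third class, and close to it in the classes on either side of that one. The highest class, where the desert share is 75%, holds 8 desert peaks. The desert at the end of chromosome 14, where most peaks were kept, is included.

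By local GC content the share lost also fell as GC rose, but the desert share was the higher one in each of the 5 classes. With peaks matched on local GC content the difference was 11.4 points. Among desert peaks with the least GC within 500 bp, 72.5% were lost, against 55.0% of other peaks in that class. In the class with the most GC, with 48 desert peaks, it was 22.9% against 20.7%. Without the desert at the end of chromosome 14, 36 desert peaks remained in that class. Of these 30.6% (18.0 to 46.9) were lost, where fold enrichment gave 31.7%. Lost desert peaks had a median fold enrichment of 20.8, a width of 200 bp and 38.8% GC, whereas kept desert peaks had 32.4, 300 bp and 42.4%. The core consensus stood in 35.8% of the lost and 64.9% of the kept. Put the other way, 46.8% (43.1 to 50.4) of desert peaks with the consensus were lost and 74.5% (71.4 to 77.4) of those without. Outside deserts the shares were 26.6% and 56.8%, so that desert peaks were lost more often with the consensus as well as without it. Kept desert peaks were narrower in treated cells in 62.4% of cases and wider in 13.6%, with a median change of -50 bp, as were other kept peaks (62.7% narrower, 15.1% wider).

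The share lost rose with distance from genes, starting well inside the limit that defines a desert. Among peaks outside protein-coding genes it was 23.3% within 1 kb of a transcription start, 39.2% between 10 and 50 kb, 50.3% between 100 and 250 kb and 58.6% between 250 and 500 kb. Within deserts it was 62.9% (59.4 to 66.3) between 500 and 750 kb and 63.8% (58.6 to 68.8) between 750 and 1000 kb. It was lower, 51.8% (46.2 to 57.4), between 1000 and 1500 kb, and 69.8% (60.9 to 77.4) for the 116 peaks beyond 1500 kb. Without the desert at the end of chromosome 14, which holds the immunoglobulin heavy chain genes, the share between 1000 and 1500 kb was 54.8% (48.9 to 60.5), still the lowest of the 4 classes. With the limit of a desert set at 1 Mb, the difference from other peaks of equal strength was 9.0 points. The expected share from fold enrichment was almost level across these 4 classes, from 47.1% to 48.2%. The rule therefore cuts through a graded series. Median GC content of the surrounding 100 kb fell along it as well. It was 43.7% between 10 and 50 kb, 38.2% between 250 and 500 kb and 34.9% beyond 1500 kb. Whether distance or regional GC content has a part in the loss was not tested. The members nearest to the limit lay 500055 bp from the start of DIRAS2 (kept) and 500336 bp from that of LRRN3 (lost), and the nearest peaks left out lay 499898 bp from the start of SPHKAP (lost) and 499547 bp from that of GALR1 (kept).

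**Figure D3:**
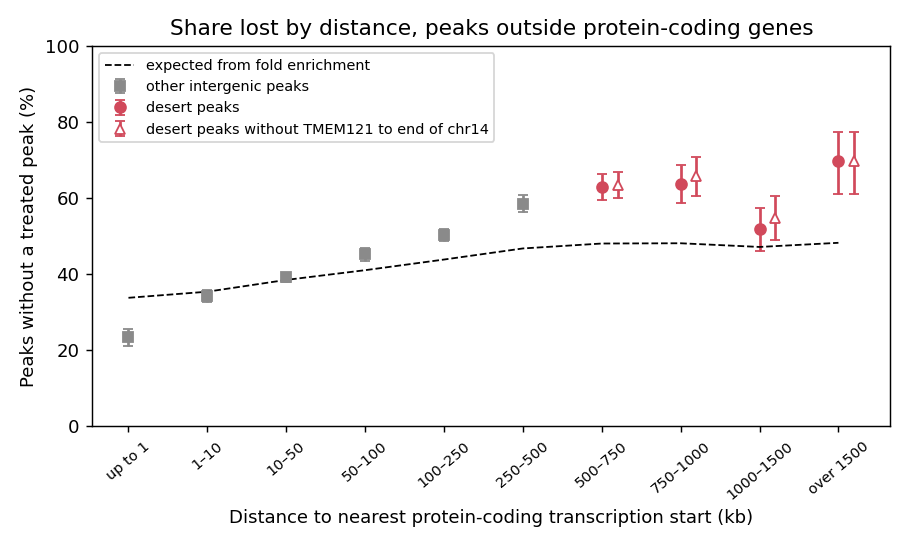
Share of control peaks outside protein-coding genes that were lost after CBL0137 (y axis, %) by distance to the nearest protein-coding transcription start (x axis, kb), for desert peaks (circles) and nearer intergenic peaks (squares), with Wilson 95% intervals of counting error. Open triangles leave out the desert from TMEM121 to the end of chromosome 14, and the dashed line is the share expected from fold enrichment, which lies above the measured share up to 10 kb and below it in each farther class.

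The difference was seen along most of the genome. Of the 17 chromosomes with at least 20 desert peaks, the desert share lost was above that of other peaks of the chromosome on 16. It was above the share expected from fold enrichment on 15, and below it on chromosomes 14 and 20 (42.9% against 46.0% on chromosome 20). On chromosome 5 it was close to the expected share, 58.3% against 57.4%. Chromosomes 2 and 4 held the most desert peaks, 180 each, of which 63.9% and 65.6% were lost. On chromosome 13, where deserts held 10.3% of all CTCF peaks, 67.7% of 124 were lost, and on chromosome 9, 71.1% of 45. Against other peaks of the same chromosome, the exception was chromosome 14, with 41.4% of 87 desert peaks lost against 42.3% of others. Without the desert at its end, 65.4% (51.8 to 76.8) of the 52 other desert peaks of chromosome 14 were lost.

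The peaks lay in 267 deserts, each being the gap between neighbouring protein-coding genes and named here by them. Counts for a desert take in only the peaks that met the rule. Any peaks of the gap within 500 kb of a protein-coding start are not in them. Of these, 173 held at least 3 peaks, and 9 of the 267 contained at least 1 Mb of unsequenced bases, as at centromeres. Fates were mixed within 154 of the 173, while 15 had lost every peak and 4 had kept every peak. The last were INSC–SOX6, MCTP2–NR2F2, BMP2–HAO1 and SLC8A1–PKDCC, named after their values were seen. The share lost per desert had a median of 66.7% (quartiles 50% and 78.6%), and 133 of the 173 had lost more peaks than their fold enrichments gave, 40 fewer. This expectation, like each one given below for a desert or a group of deserts, rests on fold enrichment alone. It leaves out regional GC content, with which the difference also moved. Neighbouring desert peaks, at a median of 85.1 kb from each other, were both lost in 497 of 1243 pairs, both kept in 205, and of different fate in 541. With 61.5% of all desert peaks lost, many such pairs arise without any tie between neighbours. The counts were not set against that share, so nothing about neighbours can be read from them.

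The 12 deserts with the most peaks held 272 of them, of which 144 were lost. The one with most peaks stood apart from the others. It ran from TMEM121 to the end of chromosome 14 (chr14:105996536-107349540) and is a desert only by the letter of the rule, since it holds 176 immunoglobulin segments, which the annotation does not class as protein-coding genes. CTCF sites are known to lie along this locus, the immunoglobulin heavy chain locus, between its variable gene segments. Of the 35 control peaks that met the rule there, 33 were kept and 2 lost, 5.71% (1.58 to 18.6), where fold enrichment gave 31.0%. The peaks were close together (median gap 13.1 kb), 26 held the consensus, all of them kept, and 16 of these matched it without mismatch. The matches mostly faced one way, 22 on the minus and 4 on the plus strand. Treated cells had 4 arisen peaks there as well. The strongest desert peak of all, chr14:107020051-107020350, had a fold enrichment of 98.1 in control cells and 48.9 in the treated list, whose scales are not shared.

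The matches of 4 kept peaks from this locus, with 9 bases on either side and the 12-base core in capitals, are shown on the strand of the match because the bases around the core are nearly the same in them.
chr14:107074601-107074850, kept: ctctcagaaCCACCAGGGGGCgctcaggac
chr14:107119701-107120450, kept: cgctcagaaCCACCAGGGGGCgctcaggac
chr14:107147501-107148550, kept: cgctcaggaCCACTAGGGGGCgctcaggac
chr14:107238801-107239250, kept: agctcagaaCCACCAGGGGGCgctcaggac
With peaks near immunoglobulin or T cell receptor segments left out, 1471 desert peaks remained, 62.8% of them lost, 14.6 points above others of equal strength.

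**Figure D4:**
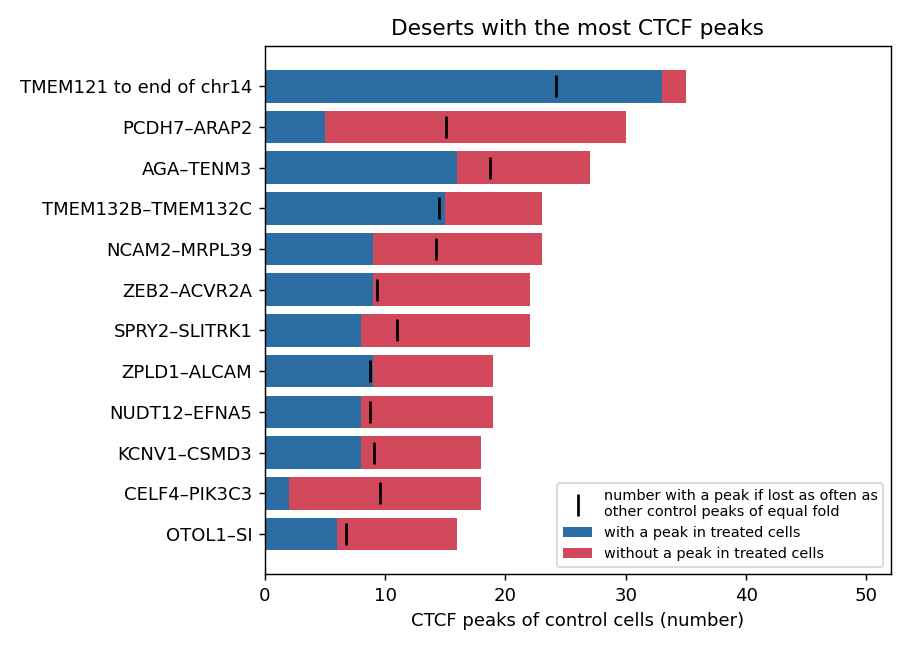
The 12 deserts with the most CTCF peaks of control cells, named by their border genes (y axis), with the number of peaks (x axis) kept in blue and lost in red. The vertical tick marks the number that would be kept if peaks were lost as often as other control peaks of equal fold enrichment. In the desert at the end of chromosome 14 the kept part reaches far past the tick, and in PCDH7–ARAP2 and CELF4–PIK3C3 it ends far before it.

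The desert between PCDH7, a protocadherin of neuronal contacts, and ARAP2, a regulator of small GTPases (chr4:31148428-35949842, 4.80 Mb), lost most of its sites. Of 30 control peaks 25 were lost, 83.3% (66.4 to 92.7), where fold enrichment gave 49.9%. The gap has 34.8% GC, and in the lowest class of regional GC content 56.9% of other control peaks were lost. Lost peaks had fold enrichments of 12.8 to 49.9 and kept ones of 22.7 to 39.2, so that the groups overlapped and the strongest peak of the desert was lost. The 3 desert peaks farthest from any protein-coding start, up to 2662452 bp away, lay in this gap, and all were lost. The core consensus was present in 4 of the 5 kept and 11 of the 25 lost peaks. The exact cores of this desert are shown on the strand of the match, to compare the lost site with the kept ones.
chr4:31540601-31540800, lost: acctccagaCCAGTAGGTGGCacttacaag
chr4:33062551-33062950, kept: ctgtggccaCCACCAGAGGGCtcggcagga
chr4:35409351-35409600, kept: atcatagctCCACTAGGTGGCgccccagta
The lost site had a fold enrichment of 33.5, between those of the kept ones, 22.7 and 39.2.

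CELF4–PIK3C3 on chromosome 18 (chr18:35145791-39535198, 4.39 Mb) went the same way. CELF4 is an RNA-binding protein of neurons and PIK3C3 the class III phosphoinositide kinase of autophagy. Of 18 peaks 16 were lost, 88.9% (67.2 to 96.9), where 46.9% was expected. Kept peaks had fold enrichments of 32.4 and 33.5, and lost ones reached from 10.8 to 60.2. The core was seldom matched closely here, with 3 or more mismatches at 9 of the 18. The strongest lost peak and the kept one with the exact core read as follows.
chr18:36370351-36370600, lost: atctttgtaCCCGCAGGGGGCagagcagag
chr18:38515401-38515750, kept: ttgtcccaaCCACTAGGGGGCtctttgtct
The sequence with the exact core was kept at 33.5-fold, and the other, with 1 mismatch, was lost at 60.2-fold. The other kept peak of this desert, at 32.4-fold, had no match with at most 1 mismatch.

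The third desert, between AGA, a lysosomal enzyme, and TENM3, a teneurin that guides synaptic partners (chr4:178363592-183065139, 4.70 Mb), kept most of its sites. Of 27 peaks 11 were lost, 40.7% (24.5 to 59.3), where 30.8% was expected. The kept peaks were mostly the stronger ones, with fold enrichments of 24.1 to 62.6 against 16.1 to 36.1 for the lost, and 10 of 16 kept peaks but 2 of 11 lost ones held the consensus. The exact core of a lost peak and of 2 kept ones is shown on the strand of the match.
chr4:181753351-181753550, lost: acacatggcCCACTAGGTGGCcatacaggg
chr4:180228701-180229050, kept: ctctttttgCCACTAGGTGGCaccttaact
chr4:181586001-181586250, kept: ttctttgcaCCACTAGGTGGCagtgtagtc
The core of 12 bases is identical in all 3, while the lost peak was the weaker one at 19.8-fold, against 30.6-fold and 50.5-fold.

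**Figure D5:**
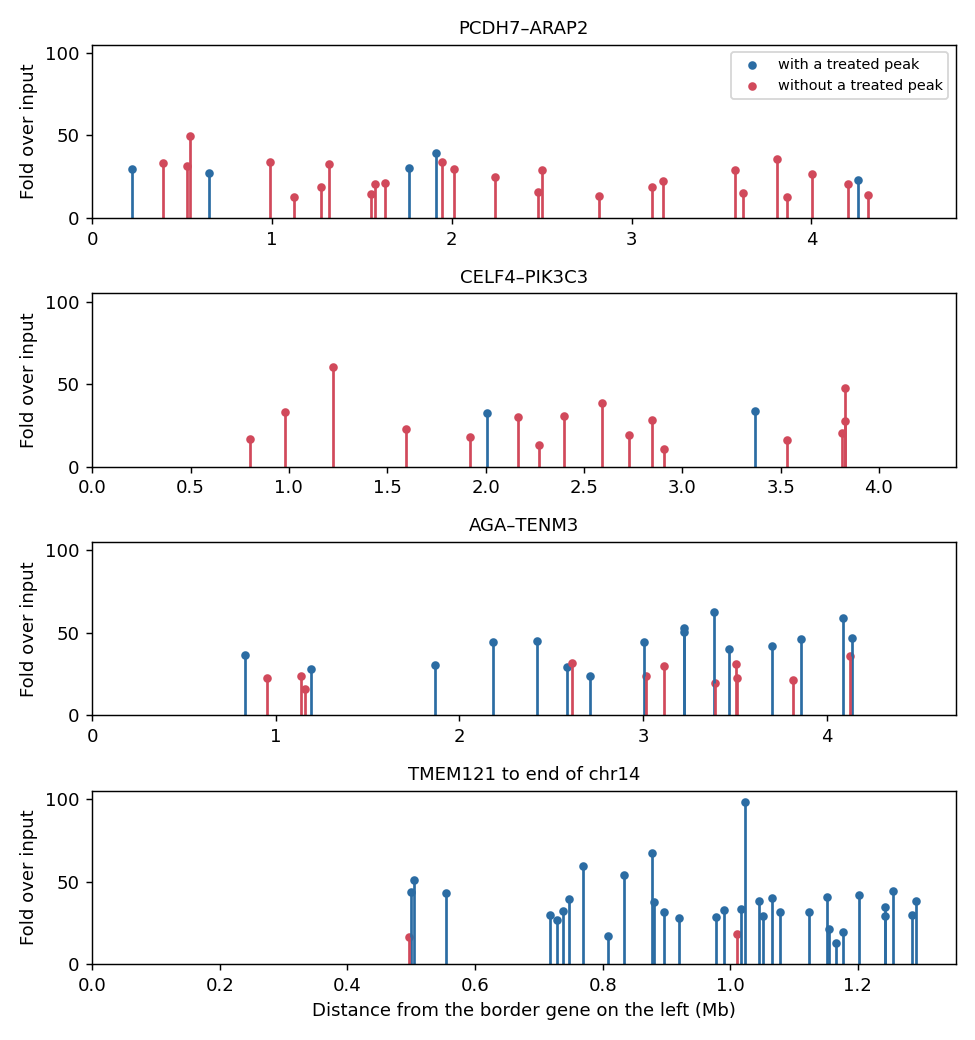
CTCF peaks of control cells along 4 deserts, with the distance from the border gene at lower coordinates (x axis, Mb, a separate scale for each panel) and the fold enrichment over input (y axis), blue where a treated peak overlapped and red where none did. Only peaks that met the desert rule are drawn. PCDH7–ARAP2 and CELF4–PIK3C3 are mostly red, with 5 of 30 and 2 of 18 peaks kept, AGA–TENM3 alternates, and TMEM121 to the end of chromosome 14 is blue but for 2 peaks.

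Of the other deserts among the 12, NCAM2–MRPL39 and SPRY2–SLITRK1 lost more than their fold enrichments gave, and the others lay nearer to it. TMEM132B–TMEM132C on chromosome 12, between genes of a family of membrane proteins, lost 8 of 23 peaks (34.8%, expected 36.9%). NCAM2–MRPL39 on chromosome 21, beside a neural cell adhesion molecule, lost 14 of 23 (60.9%, expected 38.3%). ZEB2–ACVR2A on chromosome 2, between a zinc finger repressor of neural crest cells and an activin receptor, lost 13 of 22 (59.1%, expected 57.8%). SPRY2–SLITRK1 on chromosome 13, between an inhibitor of growth factor signalling and a synaptic adhesion protein, lost 14 of 22 (63.6%, expected 50.1%). All 8 kept peaks there held the consensus and 3 of the 14 lost ones.

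Of the remaining ones, ZPLD1–ALCAM on chromosome 3 lost 10 of 19 peaks (52.6%, expected 53.9%), ALCAM being a cell adhesion molecule. NUDT12–EFNA5 on chromosome 5, beside the ligand ephrin-A5, lost 11 of 19 (57.9%, expected 54.0%). KCNV1–CSMD3 on chromosome 8, beside a potassium channel subunit, lost 10 of 18 (55.6%, expected 49.8%). OTOL1–SI on chromosome 3, between a protein of the inner ear and sucrase-isomaltase, lost 10 of 16 (62.5%, expected 57.8%). The Wilson intervals of all of these include the expected share except that of NCAM2–MRPL39, which begins at 40.8%. That gap has 35.4% GC, and its interval (40.8 to 77.8) includes the 56.9% lost among other control peaks in the lowest class of regional GC content.

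Among the 69 deserts with at least 8 peaks, 54 lost more than expected and 52 lost over 50% of their peaks. The highest share was in CCSER2–GRID1 on chromosome 10, beside a glutamate receptor subunit of the delta type, with 9 of 10 lost. Its peaks were mostly weak, at a median fold of 15, though a lost one reached 49.0-fold. The expected share was 67.4%, which the Wilson interval of the share lost (59.6 to 98.2) includes. The only kept peak, at 15-fold, was also the only one with the consensus. CELF4–PIK3C3 came next, and then CSMD3–TRPS1 on chromosome 8, beside a zinc finger repressor of cartilage and hair development, with 8 of 9 lost against 39.9% expected. Only its strongest peak, at 41.9-fold, was kept. At the other end, after the desert at the end of chromosome 14, stood FANCL–BCL11A on chromosome 2 (chr2:58468546-60677654). It is bordered by BCL11A, the repressor of fetal globin, and lost 2 of 10 peaks (5.67 to 51.0%, expected 31.9%). Its run of 8 neighbouring peaks on the side of FANCL was kept whole. ZNF254–UQCRFS1, which spans the centromere of chromosome 19, lost 4 of 15, where 37.3% was expected.

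Deserts known for remote enhancers, or with a developmental regulator at their edge, were examined as a hand-written list. The 18 of them that held desert peaks had 90 in all, of which 50 were lost, 55.6% (45.3 to 65.4), where 50.2% was expected and 61.5% were lost over all desert peaks.

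The desert KCNJ2–SOX9 on chromosome 17 holds remote enhancers of SOX9, the regulator of cartilage and testis. It lost 5 of 10 peaks, where 54.8% was expected. Fates had a clear order by strength, the lost ones having fold enrichments of 12.7 to 20.6 and the kept ones of 22.1 to 40.5, without overlap. The fate did not follow the core there, which 3 of 5 held in either group. Its 2 lost peaks and its 2 kept peaks with the exact core are given on the strand of the match.
chr17:69114251-69114550, lost: tatttttttCCACCAGGTGGCaatgccctc
chr17:69234001-69234250, lost: tatcaatttCCAGCAGATGGCatctcacac
chr17:68804801-68805050, kept: tccctttgcCCACTAGGTGGCtttaccaca
chr17:69080351-69080700, kept: ctttggcaaCCACCAGGGGGCagggaaagg
The lost sites had fold enrichments of 14.9 and 13.2 and the kept ones of 25.2 and 39.5.

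ARRDC3–NR2F1 on chromosome 5, beside an orphan nuclear receptor of neural development, lost 10 of 15 peaks, where 65.1% was expected. The gaps on either side of NR2F2, the related receptor of vessels and mesenchyme on chromosome 15, differed. MCTP2–NR2F2 kept all 4 peaks, at fold enrichments of 24.7 to 35.2, and NR2F2–ARRDC4 lost 3 of 4, at 22.7 to 45.3. The expected shares lost were 38.4% and 26.7%. SLC35B3–TFAP2A on chromosome 6, beside the regulator of neural crest and face, kept 4 of 5, at 38.9 to 54.6-fold. The lost one had 36.1-fold, and the expected share lost was 15.2%. BMP2–HAO1 on chromosome 20, which holds enhancers of a bone morphogenetic protein, kept all 3, where a share lost of 35.0% was expected. These counts are small, and for BMP2–HAO1 the Wilson interval of the share lost runs from 0 to 56.1%.

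Further deserts of the list lost 4 of 7 peaks in KLHL1–DACH1, 1 of 5 in LMO4–PKN2, 4 of 5 in IRX1–ADAMTS16, 2 of 5 in GALR1–SALL3, 2 of 4 in DCDC2C–SOX11 and 2 of 3 in SOX2–ATP11B. SOX11–CMPK2 and MEF2C–CETN3 each lost the only peak that met the rule there. These border genes encode transcription factors of eye, brain and heart development, among others. Over all 173 deserts with at least 3 peaks, the 30 with a gene of a list of developmental transcription factors at an edge lost 56.8% of 183 peaks (49.6 to 63.8). The 67 with a gene of a list for cell adhesion, synapses and ion channels at an edge lost 64.1% of 621 (60.2 to 67.8), and the 79 with a gene of neither list lost 60.4% of 588. KCNJ2–SOX9, KCNJ3–NR4A2 and KIRREL3–ETS1 belong to both. The intervals overlap, and the hand-written lists are incomplete (ALCAM and TRPS1 are on neither), so that nothing particular to either kind of border can be read from them.

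Long noncoding RNA genes cover part of these regions. A noncoding gene record held 490 of the 1510 peaks, 32.5%, of which 470 were in long noncoding RNA genes and 27 lay on an exon. The share lost was 61.2% (56.8 to 65.4) within such records and 61.6% (58.5 to 64.5) outside them. The 271 long noncoding RNA genes with desert peaks held at most 7 desert peaks each. CCDC26, in the desert beside MYC, held 6, of which 4 were lost, and PKN2-AS1, in the desert of LMO4, held 5, of which 1 was lost. LINC03000 in MAT2B–TENM2 lost 2 of 6.

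Single peaks departed from the relation with strength. The strongest lost desert peak lay in MYC–GSDMC (chr8:129334901-129335250, 63.3-fold), 585 kb from the start of MYC. The next were chr4:167515551-167515800 in TLL1–SPOCK3 (62.7-fold), whose sequence was shown at the start, and chr9:92864651-92864950 in GADD45G–DIRAS2 (61.0-fold), where the best match had 2 mismatches. The strongest kept peaks other than that of chromosome 14 were those of LSAMP–IGSF11 at 78.4-fold and GALR1–SALL3 at 78.1-fold, also shown there, with 46.9-fold and 60.3-fold in the treated list.

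Few desert peaks arose after CBL0137. Of the 625 desert peaks of treated cells, 41 had no control peak, 6.56% (4.87 to 8.78), against 8.12% of other treated peaks and 8.08% over all. They lay in 32 deserts, with 4 at the end of chromosome 14 and 3 in GALR1–SALL3. They were weak and narrow, with a median fold of 18.3 and a width of 150 bp, and richer in GC than desert peaks of control cells, at a median of 48.8%. The core consensus was found in 15 of them. The strongest were chr14:107113551-107113750 (55.2-fold), chr2:83744951-83745150 in CTNNA2–SUCLG1 (50.1-fold), beside a catenin of neuronal contacts, and chr14:106598051-106598850 (47.1-fold). The sequence of the one in CTNNA2–SUCLG1 was shown with the others.

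The orientation of neighbouring consensus matches was described as well, since loops form mostly between sites that face each other. Of 280 neighbouring pairs of desert peaks with the consensus in both, 60 were convergent, 64 divergent and 156 in tandem. Both peaks were kept in 19 of the convergent, 22 of the divergent and 43 of the tandem pairs, and both were lost in 13, 16 and 33. The desert at the end of chromosome 14 gave 3, 2 and 14 of these pairs, all with both peaks kept. Without it, both were kept in 16 of 57 convergent, 20 of 62 divergent and 29 of 142 tandem pairs, a count added after the data were seen. Among all desert peaks with the consensus 46.8% were lost, and the pair counts were not set against that share. Nothing about orientation can therefore be read from them, and no loop was measured in these lists.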

How the data were processed

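CTCF ChIP-seq of HT1080 cells was analysed from a peak list for control cells and one for cells given CBL0137 (3 µM, 6 h), with 2 ChIP and 2 input replicates pooled in each list. Per the labels, reads were aligned to hg19 with Bowtie2 2.2.3 and handled with SAMtools 1.5, and the authors called peaks with PePr in windows of 100 bp at a p-value cutoff of 0.05. Each deposited list gives a fold enrichment, a ratio of ChIP over input, and a p-value and FDR per peak, all computed by the authors. The lists carry no header, and their columns were read in broadPeak order. The depth of the libraries cannot be read from them. A further pair of lists holds the authors' direct comparison of the conditions (sites, fold and p-value of one condition over the other). These were not used. All columns that held values of samples were assigned.

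Genes were those of GENCODE 44 mapped to GRCh37, counting protein-coding records and the starts of their protein-coding transcripts. Peaks on chromosomes other than 1 to 22, 1416 in the control list, were left out. GC content was taken over 500 bp and over 100 kb around each centre. The share expected at equal strength is the share lost among other control peaks in 10 classes of fold enrichment of equal size, weighted by the desert peaks in each. Calculations ran in Python 3.11.15 with pysam 0.24.0, scipy 1.17.1, pandas 2.3.3 and numpy 2.4.6, and were tested on simulated data.

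Named are the 12 deserts with the most peaks, the 3 with the highest and the 3 with the lowest share lost among those with at least 8 peaks, deserts of a list of developmental regulators (some are not reported here, but enter its totals), and the 3 strongest kept, lost and arisen peaks and the 3 farthest. Border genes were grouped by hand-written lists. The members and the lists were chosen with earlier results of these data known. Other distance limits, gene sets, thresholds, overlap rules and matchings were tried.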

Additional observations from a re-analysis of the deposited data

How the results depend on the processing

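The share of desert peaks lost stayed above that of other control peaks under each alternative tried, and no result changed direction. The number of desert peaks moved with the definition. It was 3445 with a limit of 250 kb, 417 with 1 Mb, 270 when deserts were gaps of at least 500 kb between genes of any type, and 958 with an FDR of at most 1e-05 in both lists. The share lost was 56.8% with the limit of 1 Mb, 67.8% for gaps between genes of any type, 64.4% with the stricter FDR, and 67.4% when a kept peak had to share more than 50% of the larger one. It was 42.1%, against 23.7% of others, when the control list was shortened to the length of the treated list by dropping its weakest peaks. Without the desert with most peaks it was 62.8%. The difference at equal fold enrichment, 13.6 points, was 9.0 with the limit of 1 Mb, 9.53 with GC content matched as well, 4.84 with regional GC content matched instead and 4.83 with regional GC content and fold enrichment matched together. Under the other alternatives it lay between 11.3 and 15.6. The consensus share was 14.3% without mismatch and 80.8% with at most 2. Arisen desert peaks numbered 87 at 250 kb, 15 at 1 Mb and 132 under the rule of more than 50% overlap. The ratio of densities was 0.352 at 250 kb, 0.288 at 1 Mb and 0.268 with the stricter FDR. For the shifts other than those the definition itself makes, the cause was not tested. No paired analysis was possible because each list pools its replicates, and for the same reason no replicate could be left out in turn.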

Other observations

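The X chromosome, which the rule leaves out, held 43 control peaks in regions of the same kind. Of these 29 were lost, 67.4% (Wilson 95% interval 52.5 to 79.5), against 676 of the 1345 other control peaks of that chromosome, 50.3% (47.6 to 52.9). Their median fold enrichment was 28.4, against 34.4 for the others.

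The 582 desert peaks that were kept moved both up and down in the order of strength. Ranked among all kept peaks of their own list, they had a median percentile of 42.7 in control and 43.98 in treated cells, with a median change of 1.24 points (quartiles -21.8 and 20.9). Other kept peaks changed by a median of 0.667 points. These are ranks within lists of pooled replicates, and no error between replicates can be given.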
